A study of Sporobolus alterniflorus and Setaria viridis with 12 samples.

Results

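Leaves of Setaria viridis and Spartina alterniflora grown without added salt were compared gene by gene. The comparison used the 6 control libraries among the 12 libraries of the series, 3 for each species, and the 12134 of 15218 listed gene IDs whose mean over those 6 libraries was at least 1 FPKM (read fragments of a gene relative to its length and to the size of the library). Both groups were mature leaf labelled as untreated control, with no further genotype or ecotype given. The labels list the second species under its current name, Sporobolus alterniflorus. Its plants were raised from seed collected at a lake in the Shanghai area and were 2 months old when moved from soil to hydroponic culture, whereas S. viridis was sown directly on potted soil and its age is not stated. Both were kept at 25 to 27 °C with 16 h of light and 8 h of dark, and the labels give different light ranges, 80 to 120 μmol per square metre per second for S. alterniflora and 150 to 200 as the optimum for S. viridis. The labels do not tell whether the 3 libraries of a species stand for different plants, and p-values here measure only the spread between libraries, part or all of which may be technical. The study, by its title, asked how vulnerable S. viridis is to salt beside its relative, and the control groups show how far leaf levels already differed before treatment.

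Both species are C4 grasses, which capture carbon first into 4-carbon acids in mesophyll cells and release it again in the bundle sheath around the veins. S. viridis belongs to the panicoid grasses and uses mainly NADP-malic enzyme for that release, and S. alterniflora belongs to the chloridoid grasses and uses mainly phosphoenolpyruvate carboxykinase. S. alterniflora is a salt marsh halophyte whose leaves carry salt glands, and S. viridis is an inland annual used as a laboratory model. In leaves of such grasses a small number of photosynthesis genes usually supplies a large share of the messenger RNA. None of these enzymes can be located in the table, because the files pair 0 of its IDs with a gene name, and for the same reason the label of mature leaf could not be checked against leaf markers. Genes are therefore described by ID and by groups of IDs, and no pathway is named.

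Several features of the table bear on every value that follows. All IDs have the form used for Setaria gene models in both species, and the sources used here do not state how reads of S. alterniflora were assigned to them. Values of S. viridis were written with 2 decimals in 100% of cells, against 80.4% of S. alterniflora cells, where trailing zeros were dropped. Levels of the 2 species may therefore have been scaled separately, and every difference between them carries that limit. In the names of the treated columns S. viridis has the number 50 and S. alterniflora 250, while the labels' protocol has these salt doses the other way round, 250 mM and 50 mM NaCl. The control columns carry no dose, but if the species prefixes had been exchanged, every direction below would be exchanged too. Of the 15218 IDs, 1462 were listed at 0 in all 3 S. viridis controls and 595 in all 3 S. alterniflora controls. Species, culture, light, age and the way in which reads were assigned cannot be told apart in this comparison.

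The level at which a typical gene stood differed between the groups before any single gene was tested. The median tested gene was at 8.65, 8.2 and 8.35 FPKM in S. viridis libraries A, B and C and at 5.93, 6.75 and 5.88 FPKM in S. alterniflora libraries A, B and C. The groups did not overlap, and the difference between the medians was 0.39 on the log2(FPKM + 1) scale (two-sided exact permutation test, p = 0.1, the smallest that 3 against 3 libraries allow). Genes at 10 FPKM or more numbered 5455.3 ± 94.2 (SD, n = 3) in S. viridis and 4658 ± 269.1 in S. alterniflora. Those at 100 FPKM or more numbered 836.7 ± 16.2 and 537 ± 52.7. The number of genes at 1 FPKM or more was nearly equal, 10745.3 ± 47.5 against 10796.7 ± 165.1, and the groups overlapped. The S. alterniflora controls thus had about as many detected genes but fewer at high levels.

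A few genes took a much larger part of the S. alterniflora profile. In each library the share of total FPKM in its 10 leading genes was 14.2%, 15% and 14.7% in S. viridis libraries A, B and C, and 34.9%, 26% and 44.2% in S. alterniflora libraries A, B and C. Every S. alterniflora library lay above every S. viridis library, and the S. alterniflora libraries were also further from each other. The 100 most abundant genes held 46.7% ± 0.714 (SD, n = 3) in S. viridis and 69.8% ± 7.29 in S. alterniflora. For both measures the two-sided exact permutation test gave p = 0.1, the smallest possible. Leaving out S. alterniflora library C, the most concentrated one, reduced the size of the difference in the share of the 10 most abundant genes from -20.4 to -15.8 percentage points, S. viridis minus S. alterniflora.

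**Figure D1:**
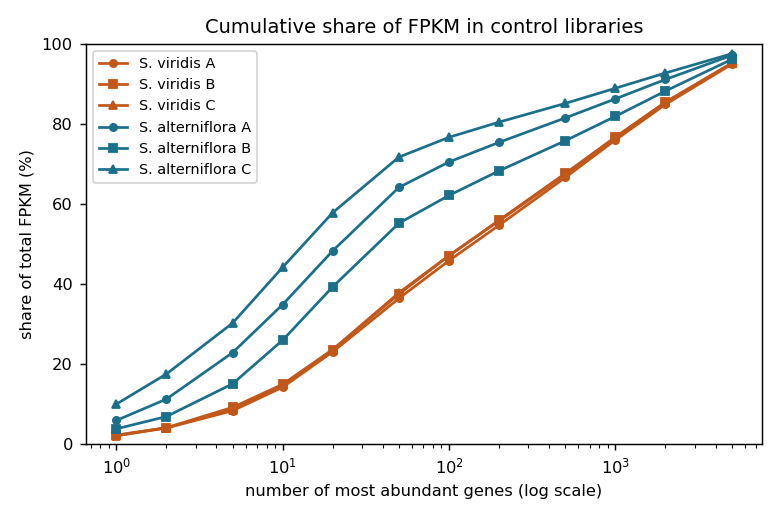
Share of total FPKM (%, vertical axis) held by the most abundant genes of each of the 6 control libraries, against the number of genes counted (horizontal axis, log scale). Orange lines are S. viridis and blue lines S. alterniflora; the S. viridis lines nearly coincide, with 14.2% to 15% at 10 genes, and the S. alterniflora lines lie above them, at 26% to 44.2%.

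Leaf levels differed between the species for most genes. Of 12134 tested genes, 8768 were called different, which is 72.3% of those tested (limma on log2(FPKM + 1), Benjamini-Hochberg adjusted p under 0.05). S. viridis was higher for 4792 genes (39.5%) and lower for 3976 genes (32.8%). The median size of the difference over all tested genes was 1.3 on the log2 scale, and the signed differences, S. viridis minus S. alterniflora, had quartiles of -1.05 and 1.56. Which direction was commoner depended on the scaling. Centring each library on its own median moves a typical difference by 0.39. With that scaling S. viridis was higher for 3989 genes and lower for 5065 (32.9% and 41.7%). The median difference before centring was 0.16, smaller than that shift, so centring itself left the typical gene lower in S. viridis. Upper quartile scaling gave 4189 higher and 4760 lower. Centring shifts all genes by nearly the same amount, so it moves calls from one direction towards the other and is no check on single genes.

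**Figure D2:**
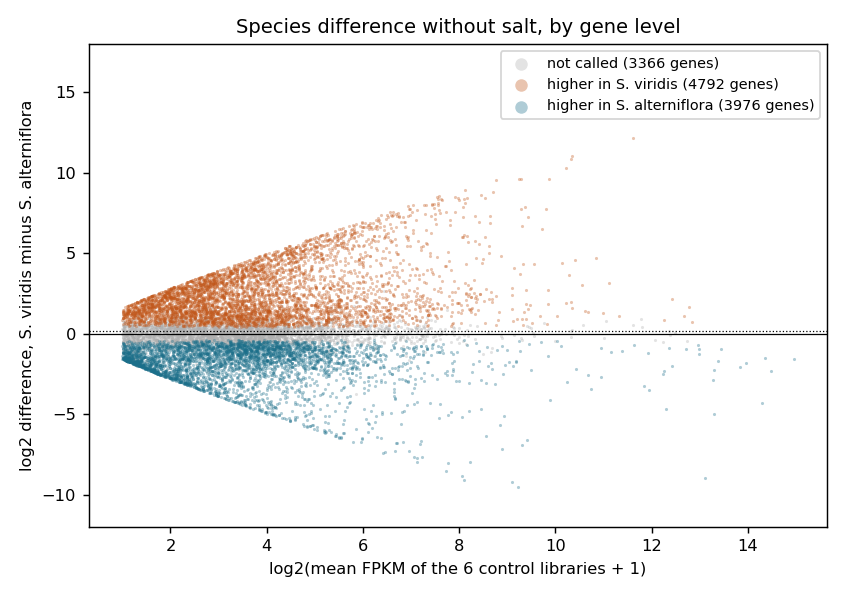
Log2 difference of each of the 12134 tested genes, S. viridis minus S. alterniflora (vertical axis), against log2 of the mean FPKM plus 1 over the 6 control libraries (horizontal axis). Orange points are the 4792 genes called higher in S. viridis, blue points the 3976 called higher in S. alterniflora and grey points the 3366 not called; the dotted line is the median difference, 0.16, and the slanted edges follow from the limit that a mean level sets on a difference.

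Of the differences of at least 16-fold, more had S. viridis higher than lower, under each scaling tried. At least 16-fold higher in S. viridis were 721 called genes (5.94% of those tested), against 235 at least 16-fold lower (1.94%). After median centring these were 576 and 305, and after upper quartile scaling 634 and 271. At 64-fold or more the deposited values gave 176 higher and 48 lower, and centring gave 128 and 64. At 4-fold or more the deposited values gave 2397 higher and 1356 lower, upper quartile scaling gave 2096 and 1704, and centring gave 1919 and 1974, so at that size the excess was kept under upper quartile scaling and lost under centring. The log2(FPKM + 1) scale understates the change of low genes. A gene near 0 in one species therefore counts as 16-fold only if it is well expressed in the other. Genes at 10 FPKM or more were more numerous in S. viridis (5455.3 against 4658 on average), so more genes could reach that size there. The counts were not repeated with a smaller pseudocount, and the excess is not free of these levels.

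The libraries of the 2 species were separated for more genes than were called. For 9370 genes (77.2% of those tested) all 3 libraries of one species lay above all 3 of the other, 5090 with S. viridis above and 4280 with S. alterniflora above. Of these, 8694 were called and 676 were not. Another 74 genes were called although the groups overlapped. Between libraries of different species, Pearson correlations of log2(FPKM + 1) across the 12134 genes were 0.381 to 0.405, against 0.98 to 0.99 within S. viridis and 0.908 to 0.955 within S. alterniflora. These describe the libraries, share the filter on the mean level, and carry no test, because genes are not independent replicates.

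The share of genes called was larger in classes of higher level. The share called was 69.4% of the 6413 genes averaging 1 to 10 FPKM, 75% of the 5032 genes averaging 10 to 100 FPKM and 79% of the 689 genes at 100 FPKM or more. The mean was taken over both species, so a gene could enter a higher class through either species alone. The log2(FPKM + 1) scale also shrinks differences of low genes. The rise in the share called is therefore a description and no result about gene level. The balance of directions also moved with level. In the lowest class 2280 genes were higher and 2171 lower in S. viridis, in the middle class 2164 and 1609, and in the highest class 348 and 196. Centring turned the lowest and middle classes, to 1827 higher and 2797 lower and to 1853 and 2031. In the highest class more genes stayed higher in S. viridis, with 309 higher and 237 lower after centring and 314 and 232 after upper quartile scaling. The classes themselves were set by the deposited values under every scaling. On those values S. viridis libraries had more genes at 100 FPKM or more (836.7 against 537 on average). Membership thus favoured genes high in S. viridis, and the remaining excess is not free of the scaling.

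**Figure D3:**
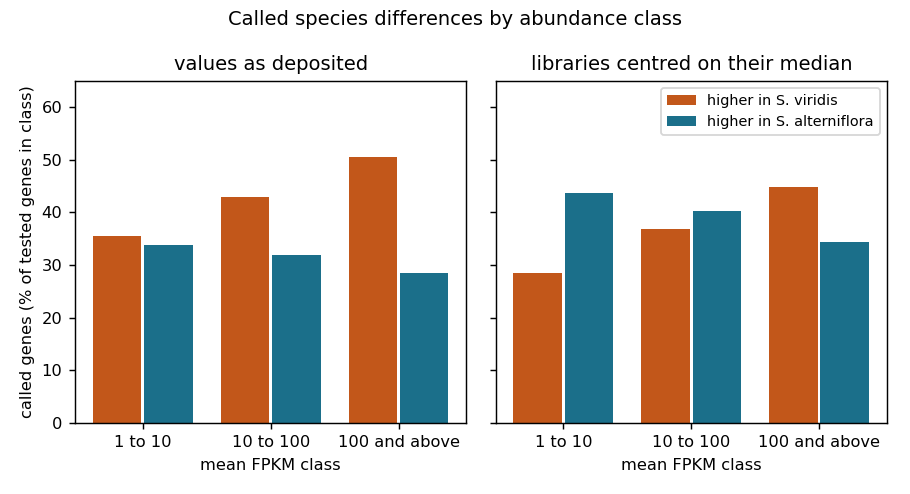
Genes called higher in S. viridis (orange) and in S. alterniflora (blue) as a percentage of the tested genes in each class of mean FPKM (horizontal axis), with the values as deposited on the left and with each library centred on its median on the right. The orange bar is taller in all 3 classes on the left and in the class of 100 FPKM and above on the right, where 309 genes were higher and 237 lower in S. viridis. The classes were set by the deposited values on both sides.

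Genes well expressed in both species differed too. In 3119 genes the mean was at least 10 FPKM in each group, and 1865 of them were called (59.8%), 962 higher and 903 lower in S. viridis. After centring 691 were higher and 1314 lower, so for this group too the commoner direction was set by the scaling. Their median size of difference was 0.79 on the log2 scale, and 244 were at least 4-fold higher and 162 at least 4-fold lower with the deposited values. Since these genes were picked for their levels in both species, their share called and the size of their differences are descriptions and are not set against those of all tested genes.

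The genes that were most abundant in one species were partly those of the other. Of the 10 most abundant genes by group mean, 4 were shared, of the top 50, 32 were shared (64% of each list), and of the top 500, 215 (43% of each list). The 100 most abundant genes of S. viridis had a median rank of 79 in S. alterniflora, but 13 of them lay in the lower part of the S. alterniflora ranking, beyond the middle rank. Of the top 100 of S. alterniflora, whose median rank in S. viridis was 80.5, 4 did so. These ranks do not depend on the scaling between species.

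Setting genes by their level in one species shows how loosely the other followed. The 83 genes at 1000 FPKM or more in S. viridis had a median of 1244 FPKM in S. alterniflora, with a lower quartile of 187.1 and an upper quartile of 5631. The 753 genes at 100 to 1000 FPKM in S. viridis had a median of 47.4 FPKM in S. alterniflora, and 12.7% of them had a mean under 1 FPKM there. In the other direction, the 465 genes at 100 to 1000 FPKM in S. alterniflora had a median of 105.9 FPKM in S. viridis, and 4.95% were under 1 FPKM. High levels in S. viridis were thus paired with near absence in S. alterniflora in a larger share of genes than the reverse, as counts in this table and with no test. At 1 to 10 FPKM the order was reversed. There 20% of the genes set by S. viridis and 27.5% of those set by S. alterniflora were under 1 FPKM in the other species. All these classes were cut on the deposited values and depend on the scaling between species. Whether divergent sequences read low in S. alterniflora was not tested.

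By the fixed rule, 2 IDs higher in S. viridis, 2 lower and 2 alike are described individually. The first of each pair that differed had the largest difference among called genes with at least 10 FPKM in both groups and groups that did not overlap. The other was the most abundant called gene in the group where it was higher. The direction and the call were part of that rule for each gene that differed and are no added evidence. For the first of each pair, the separation of the groups was part of it too.

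Sevir.5G250900 was far more abundant in S. viridis. It stood at 1217, 1284 and 1259 FPKM in S. viridis libraries A, B and C and at 13.1, 22.9 and 4.03 FPKM in S. alterniflora libraries A, B and C. The S. viridis libraries were nearly equal, whereas the S. alterniflora libraries spread by 5.67 times from lowest to highest. The difference was 6.72 ± 0.52 (log2 ± SE, limma adjusted p = 2.87e-05), and 6.33 after median centring. It ranked 69th in S. viridis and 3862nd in S. alterniflora.

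Sevir.7G299700 was the most abundant of the genes called higher in S. viridis. Its levels were 10078, 11311 and 10327 FPKM in S. viridis libraries A, B and C and 4287, 3036 and 2987 FPKM in S. alterniflora. All S. viridis libraries lay above all S. alterniflora libraries, although the gene was abundant in both species, ranking 3rd and 36th. The difference was 1.64 ± 0.22 (log2 ± SE, limma adjusted p = 0.000468), and 1.25 after centring.

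Sevir.9G469000 showed the opposite pattern. It was at 28.7, 34.5 and 35.7 FPKM in S. viridis libraries A, B and C and at 13875, 16856 and 21937 FPKM in S. alterniflora. The gene was among the 10 most abundant of S. alterniflora, at rank 9, and at rank 2224 in S. viridis. The difference was -8.99 ± 0.22 (log2 ± SE, limma adjusted p = 4.57e-07), and -9.38 after centring.

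Sevir.2G310200 was the most abundant gene of both species by group mean. In S. alterniflora it led only in library C, and Sevir.9G175700 led in libraries A and B (46132 and 25418 FPKM). Sevir.2G310200 stood at 13562, 13904 and 12839 FPKM in S. viridis libraries A, B and C. In S. alterniflora it stood at 41646, 17714 and 91488 FPKM. The lowest S. alterniflora library lay only a little above the S. viridis libraries, and the S. alterniflora libraries spread by 5.16 times. The difference was -1.6 ± 0.56 (log2 ± SE, limma adjusted p = 0.0346), and -1.99 after centring. The call was lost without any single S. viridis library (adjusted p = 0.0894, 0.0886 and 0.0998 without A, B and C), without S. alterniflora library A (adjusted p = 0.0891) and without library C, where the difference was -1.02 (adjusted p = 0.0535). It was also lost with a pseudocount of 0.1, with no filter and in 1 fit over all 12 libraries (adjusted p = 0.0582, 0.0558 and 0.054).

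**Figure D4:**
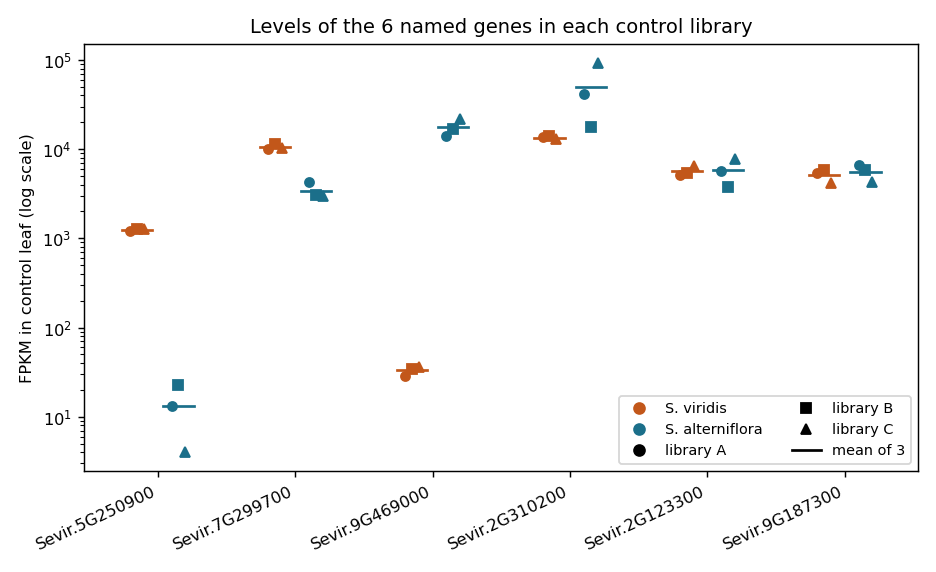
FPKM of the 6 individually described genes in each control library (vertical axis, log scale). Orange is S. viridis and blue S. alterniflora, circles, squares and triangles are libraries A, B and C, and bars are means of 3 libraries; Sevir.9G469000 stands at 28.7 to 35.7 FPKM in S. viridis and at 13875 to 21937 FPKM in S. alterniflora, while the points of Sevir.2G123300 and Sevir.9G187300 overlap between species.

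A gene that was not called is not thereby shown to be alike, so likeness was read from intervals. For 2197 genes (18.1% of those tested) the 95% interval of the difference lay within 2-fold in either direction, and 289 of these were also called, with small differences. Of the 3366 genes not called, 1458 had wider intervals and were neither different nor shown to be alike. Which genes were alike depended on the scaling: centring gave 2080 such genes, of which 1309 were among the 2197. Without S. viridis library B the number was 1488, and without S. alterniflora library C it was 2537.

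Sevir.2G123300, the most abundant of the genes alike, was at 5177, 5358 and 6503 FPKM in S. viridis libraries A, B and C and at 5696, 3760 and 7840 FPKM in S. alterniflora. The S. viridis libraries all lay within the range of S. alterniflora. Its difference was 0.03, with a 95% interval from -0.68 to 0.75. Sevir.9G187300 was at 5447, 5784 and 4222 FPKM in S. viridis and at 6591, 5788 and 4263 FPKM in S. alterniflora, where each group's range overlapped the other. Its difference was -0.1, with an interval from -0.69 to 0.49. After centring the differences were -0.35 and -0.49, with intervals from -1.18 to 0.47 and from -1.1 to 0.13, so neither gene met the limit of 2-fold under that scaling. Under upper quartile scaling the intervals began at -1.16 and -1.04, also beyond the limit.

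Some genes were found in the control leaves of one species and hardly at all in those of the other. At 1 FPKM or more in all 3 libraries of both species were 7841 genes. Another 1049 genes reached 1 FPKM in every S. viridis library and stayed under it in every S. alterniflora library, and 1135 showed the reverse. The remaining 2109 fell in no such class. These classes were set by the levels themselves, so the calls within them are no result. The genes confined to S. viridis by this definition had a median of 8.91 FPKM there, and 58 of them reached 100 FPKM, up to 2612 FPKM. The genes confined to S. alterniflora had a lower median of 4.98 FPKM, and 19 reached 100 FPKM, up to 546 FPKM. The class of S. alterniflora was thus slightly more numerous and the class of S. viridis more abundant. In the salt libraries 469 of the 1049 S. viridis genes (44.7%) and 673 of the 1135 S. alterniflora genes (59.3%) met the same definition. The classes therefore describe the control libraries only. The limit of 1 FPKM was applied to the deposited values and was not repeated under another scaling.

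Exact zeros were commoner in S. viridis. Listed at 0 in all 3 S. viridis controls and at 1 FPKM or more in all 3 S. alterniflora controls were 356 IDs, against 209 IDs the other way round. At 5 FPKM or more in the second species these counts turned to 107 and 130. An exact 0 can be a failed estimate, so these genes are described only as listed at 0. In the salt libraries of S. viridis, 248 of the 356 IDs were again listed at 0 in all 3, and 4 of them reached 1 FPKM in all 3. In the salt libraries of S. alterniflora, 30 of the 209 IDs were again listed at 0 in all 3, and 5 reached 1 FPKM in all 3. A value of 0 in every S. viridis control was thus repeated in 3 further libraries of that species for most such IDs, and a value of 0 in every S. alterniflora control for a minority. The same contrast held whatever the level in the other species. Of all 1462 IDs listed at 0 in the S. viridis controls, 923 were also 0 in its salt libraries. For S. alterniflora these were 60 of 595. The contrast is therefore not particular to the IDs described here.

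The error of the comparison came mostly from S. alterniflora. On the log2 scale the median SD between the 3 libraries of a group was 0.14 for S. viridis and 0.34 for S. alterniflora, and the SD was larger in S. alterniflora for 9776 genes (80.6%). A spread of at least 4-fold between libraries occurred in 72 genes of S. viridis and 631 of S. alterniflora. In 360 of those 631 genes the library farthest from the middle one was C, in 183 it was B and in 88 it was A. The genes in which C stood apart were about evenly high and low in C, with 178 high. Without S. alterniflora library C, 9306 genes were called, 4914 higher and 4392 lower in S. viridis, and without any other single library 7748 to 8697. Only 8 genes differed by at least 4-fold and were not called, and the SD between libraries had a median of 0.26 among the S. viridis and 2.53 among the S. alterniflora controls.

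Differences were spread over the whole set of IDs. The number before the letter G in an ID is, by the naming of Setaria gene models, the chromosome. The share called ran from 70.9% of 2297 tested genes with number 9 to 75.3% of 796 genes with number 6. The median difference ran from -0.02 for number 8 to 0.24 for number 6. Genes found only in S. alterniflora by the definition above made up 14.4% of the 493 tested genes with number 8 and 8.1% to 10.5% with the other numbers. Genes found only in S. viridis made up 10.5% with number 8 and 7.24% to 10.3% with the other numbers. Number 8 thus had the largest share of both classes. No test was run on these shares. Differences of genes with consecutive tested IDs were nearly unrelated, at a Pearson's r of 0.02 and a Spearman's rho of 0.02 over 12125 pairs, which share their libraries. Where both genes of such a pair were called, 51.4% had the same direction, and the longest unbroken run was 9 genes higher and 7 genes lower in S. viridis.

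Some IDs carried the same values in S. viridis. Among IDs above 1 FPKM in all 3 libraries, 14 pairs had exactly equal values in every S. viridis control library, and 0 pairs did in S. alterniflora. The values of these IDs cannot be told apart in S. viridis, and why they are equal was not tested. If IDs share reads with a close copy, their levels are uncertain.

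The same species difference was measured again in the salt libraries, which share no library with the controls. There 7685 of 12445 tested genes were called (61.8%), 3968 higher (31.9%) and 3717 lower (29.9%) in S. viridis. Of the 8421 genes called without salt and tested in both, 87.2% had the same sign under salt. Among 4585 genes higher in S. viridis without salt, 3026 were called higher under salt too, and among 3836 lower genes, 2611 were called lower again. Of the 951 genes with a difference of at least 16-fold without salt, 903 were called in the same direction under salt and 5 in the opposite one. Across the 11632 genes tested in both, Pearson's r between the differences was 0.807, and Spearman's rho 0.786, as a description over genes that share the assignment of reads.

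A smaller group changed sides. Called higher in S. viridis without salt and lower under salt were 125 genes, and 166 were called lower without salt and higher under salt. These genes were picked by their calls in both fits, so no further test was set on them. Among all genes, 24.2% of 12529 had a species difference that was called different between control and salt libraries (limma over 12 libraries, adjusted p under 0.05). Of 2134 genes alike without salt and tested in both, 350 were alike under salt by the same interval, and 644 were called under salt with at least a 2-fold difference. Intervals were wider there, with 717 genes alike under salt in all. Salt dose differed between the species as well.

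**Figure D5:**
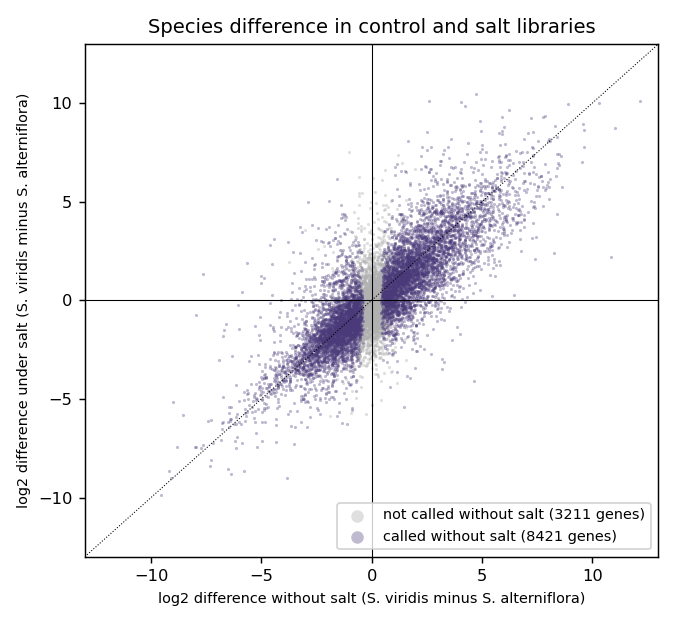
Log2 difference, S. viridis minus S. alterniflora, under salt (vertical axis) against the same difference without salt (horizontal axis) for 11632 genes tested in both, with the dotted line marking equal values. Purple points are the 8421 genes called without salt and grey points the others; most purple points lie in the quadrants of equal sign, where 87.2% of them fall.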

How the data were processed

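Per the labels' protocols, total RNA of mature leaf was isolated with a PureLink kit and read in pairs of 150 bases on an Illumina instrument. Per the file headers, the authors deposited FPKM values of 12 libraries for 15218 IDs in 1 table. The submitters' processing notes list RSEM and edgeR but not what each did; the sources used here do not state an aligner, genome build or filter. Columns were assigned to groups by species and treatment, since their letters A to C do not appear in the labels; 0 columns were left unmapped.

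FPKM is not a count, so log2(FPKM + 1) was tested with limma 3.58.1 in R 4.3.3 (eBayes with trend, two-sided, Benjamini-Hochberg adjustment over all tested genes, threshold 0.05), over genes averaging 1 FPKM or more in the 6 control libraries. The salt libraries were fitted in the same way, and the difference between both species differences over all 12 libraries; the last fit was added after seeing the data. Other summaries and figures used Python 3.11.15, pandas 2.3.3 and matplotlib 3.10.9. Genes, classes and tests were chosen with earlier results of these data known. The rule for named genes gave at most 2 IDs higher, 2 lower and 2 alike, because no ID is paired with a name, and the 12 planned gene lists could not be used. The 95% intervals are those of limma.

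Read totals cannot be had from FPKM, and depth is unknown. Between each pair of S. alterniflora controls, ratios of low values (0.15 to 0.8 FPKM) piled up at 1 value, at ratios of 0.92 to 1.06. The pile was 2.7 to 9.46 times above the ratios around it. In S. viridis it was 2.36 to 2.85 times, a range that holds the lowest S. alterniflora value. Single-read steps would give such a pattern, but the source of the pile was not tested. On data simulated for the comparison without salt over 12134 genes, the fit recovered 25% of 2-fold and 70% of 4-fold differences among 100 of each, with 7 false calls. No other simulated gene differed, and residual SDs were reassigned among genes at random. In the data 72.3% of genes were called, which makes the adjusted threshold less strict. The recovered shares therefore do not describe the comparison itself. The alternatives were median centring, upper quartile scaling, a filter at 5 FPKM or none, a pseudocount of 0.1, limma with no trend, a joint fit of 12 libraries, the column letter as a block and each library left out.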

Additional observations from a re-analysis of the deposited data

Results flagged for a closer look

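For 4 individually described genes the species difference without salt differed from that under salt by the test over all 12 libraries (limma, adjusted p under 0.05, 24.2% of 12529 genes called). All individually described genes were picked by their control values, and the same values enter this test. The choice therefore favours a change under salt, and the adjusted p-values below are descriptions. The difference without salt minus that under salt was 3.44 ± 0.75 (log2 ± SE, adjusted p = 0.00754) for Sevir.7G299700, which was 1.64 without salt and -1.8 under salt. S. viridis held 319.9, 785.1 and 2092 FPKM of this gene in its salt libraries A, B and C, below the 2582 FPKM of the lowest S. alterniflora salt library. For Sevir.9G469000 it was -3.84 ± 0.61 (adjusted p = 0.00132), and the gene was at 302.9, 482.6 and 170.8 FPKM in the S. viridis salt libraries. For Sevir.2G310200 it was 3.003 ± 0.95 (adjusted p = 0.038), and for Sevir.2G123300, alike without salt, 2.87 ± 0.69 (adjusted p = 0.0124). Groups of 3 libraries were too small for a test of single outlying libraries.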

How the results depend on the processing

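The number of genes called without salt was 7952 to 9663 over the alternatives that kept all 6 control libraries and all levels, and 6123 with a filter at a mean of 5 FPKM. That filter tested fewer genes and left 3537 higher and 2586 lower in S. viridis, against 4792 and 3976 with the main filter. A larger part of the lower calls was lost. With no filter 3818 genes were alike, as low genes with small differences on this scale were added. IDs listed at 0 fell to 130 in S. alterniflora and 107 in S. viridis when 5 FPKM was asked of the other species. Without single libraries 7748 to 9306 genes were called, 4321 to 4918 higher and 3413 to 4392 lower, and 1488 to 2537 were alike. The share of the 10 most abundant genes then differed by -24.9 to -15.8 percentage points. Of the individually described differences, that of Sevir.2G310200 lost its call under 8 alternatives, and those of Sevir.5G250900, Sevir.7G299700 and Sevir.9G469000 kept theirs under all that were run. With the column letter as a replicate block 8456 genes were called, 4658 higher and 3798 lower, and 1893 were alike. Deviations of columns with the same letter correlated between species at 0.04, -0.07 and -0.05, and those with different letters at -0.07 to 0.1. With 3 libraries per group, these values cannot decide whether the letters paired the libraries. Depth is unknown, which limits every low value.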
